A study of Rattus norvegicus with 20 samples.

Results

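The levels of 9 immediate early genes were followed across skeletal muscle of Sprague Dawley rats: Fos, Fosb, Jun, Junb, Egr1, Atf3, Ier2, Btg2 and Nr4a1. They were chosen by gene name, and each name matched 1 entry of a table of 21926 gene entries, so 9 of 21926 entries are described. Poly(A) RNA was sequenced from stranded libraries. The 20 libraries fell into 4 groups of 5: ischemic gastrocnemius, sham gastrocnemius, ischemic soleus and sham soleus. For ischemia, a catheter passed inside the vessel occluded the ilio-femoral artery of the hindlimb, and controls had a sham procedure. All groups share the Sprague Dawley strain, and the labels name no other genotype and no drug. The labels used here state neither the rats' age and sex nor how long after the operation the muscles were taken. The labels do not say whether libraries of a group came from separate rats or whether equal numbers mean the same rat, so the p-values measure only the spread between these libraries.

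Immediate early genes are transcribed within minutes of a signal and need no new protein for it. Kinases such as ERK, JNK and p38 act on factors already bound at their promoters, among them the serum response factor with its ternary complex partners and CREB, and the transcripts are short-lived. Fos, Fosb, Jun and Junb encode subunits of the AP-1 dimer, Atf3 a stress-induced leucine zipper factor, Egr1 a zinc finger factor and Nr4a1 an orphan nuclear receptor. Ier2 and Btg2 do not encode classical DNA-binding factors: Btg2 belongs to an antiproliferative family that works with the CCR4-NOT deadenylase. In skeletal muscle these genes are known for rapid transcription after contraction, stretch and injury.

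Libraries held 53.6 to 85.4 M counts, 67.3 M on average. Fast fibre markers summed to between 28700 and 65200 FPKM in gastrocnemius libraries and to between 2010 and 7330 FPKM in soleus libraries, and slow fibre markers to between 168 and 9900 FPKM against 29500 to 51700 FPKM. FPKM, a level per transcript length and sequencing depth, is printed as deposited. Sham soleus 4 stood apart: it had 8048 genes at 1 FPKM or more, where the rest had 9711 to 11789, and its TMM scaling factor was 0.495, where the rest had 0.863 to 1.27. Because of that factor its scaled counts sit higher among the sham soleus libraries than its FPKM values do. Where leaving it out moved a printed summary of the 9 genes by much, the value without it stands beside it. In whole muscle, fewer cells of a type and less RNA per cell cannot be told apart.

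Promoter sequences are shown because the 9 genes moved together from library to library, as described below. A RefSeq sequence (GRCr8) was held for 6 of the 9 genes, and the 250 bases before the annotated start are printed for the 4 that held a searched motif, 5′ to 3′ on the gene's strand. Capitals mark the motif matches. In Egr1 (chr18:26736828-26737077, plus strand) they are CArG boxes, the serum response factor motif. In Ier2 (chr19:40399123-40399372, plus strand) and Btg2 (chr13:48087691-48087940, minus strand) they are the full cyclic AMP response element TGACGTCA. In Nr4a1 (chr7:134259888-134260137, plus strand) they are TGCGTCA, which was searched after its promoter had been seen, and this window lies inside the RefSeq gene model.
Egr1: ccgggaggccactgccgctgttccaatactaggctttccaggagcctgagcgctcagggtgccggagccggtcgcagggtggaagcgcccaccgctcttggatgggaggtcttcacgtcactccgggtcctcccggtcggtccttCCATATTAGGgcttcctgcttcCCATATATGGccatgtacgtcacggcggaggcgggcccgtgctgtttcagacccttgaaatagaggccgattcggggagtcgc
Ier2: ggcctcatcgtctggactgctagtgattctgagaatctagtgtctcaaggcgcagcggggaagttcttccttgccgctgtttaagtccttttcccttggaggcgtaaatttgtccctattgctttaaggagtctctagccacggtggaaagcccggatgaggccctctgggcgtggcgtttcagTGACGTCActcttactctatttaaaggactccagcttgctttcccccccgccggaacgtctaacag
Btg2: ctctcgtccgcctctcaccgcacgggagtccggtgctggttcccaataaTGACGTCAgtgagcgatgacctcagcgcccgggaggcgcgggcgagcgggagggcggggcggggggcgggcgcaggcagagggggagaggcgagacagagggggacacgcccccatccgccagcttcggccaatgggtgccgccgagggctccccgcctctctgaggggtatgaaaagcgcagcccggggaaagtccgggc
Nr4a1: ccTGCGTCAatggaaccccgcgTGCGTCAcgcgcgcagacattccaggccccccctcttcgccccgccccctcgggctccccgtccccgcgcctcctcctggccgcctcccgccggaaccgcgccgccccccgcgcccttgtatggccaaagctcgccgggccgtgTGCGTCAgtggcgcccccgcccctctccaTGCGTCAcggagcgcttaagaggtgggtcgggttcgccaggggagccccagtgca

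Egr1 held 2 CArG boxes, from 105 to 96 and from 83 to 74 bases before the start. Ier2 held TGACGTCA from 66 to 59 bases before the start and Btg2 from 201 to 194. Nr4a1 held TGCGTCA 4 times, the nearest from 55 to 49 bases before the start. Both strands were searched, and none of the printed matches overlapped. Of 33465 promoter windows of 250 bases, 1.5% held a CArG box, 1.59% held TGACGTCA and 1.66% held TGCGTCA. The AP-1 letters TGANTCA, in 6.34% of all windows, were in 0 of the 6 windows, which says only that these letters are not in these stretches. Junb and Fosb windows held none of the 4 motifs, and the Fosb window, like that of Nr4a1, lies inside the RefSeq gene model.

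A single difference among the 9 genes passed the test. Nr4a1 was higher in sham gastrocnemius than in sham soleus, with a log2 fold change of 1.67 ± 0.47 (SE, edgeR quasi-likelihood adjusted p = 0.0134). After ischemia the highest levels of 6 of the 9 genes over all 20 libraries were in soleus libraries 1 or 2, that of Atf3 was in soleus library 3, and those of Jun and Nr4a1 were in gastrocnemius library 1. For none of the 9 genes were all 5 ischemic soleus libraries above all 5 sham soleus libraries. In ischemic soleus the log2 fold change against sham was 2.50 ± 0.78 for Egr1 and 1.84 ± 0.88 for Fos, and neither passed.

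**Figure D1:**
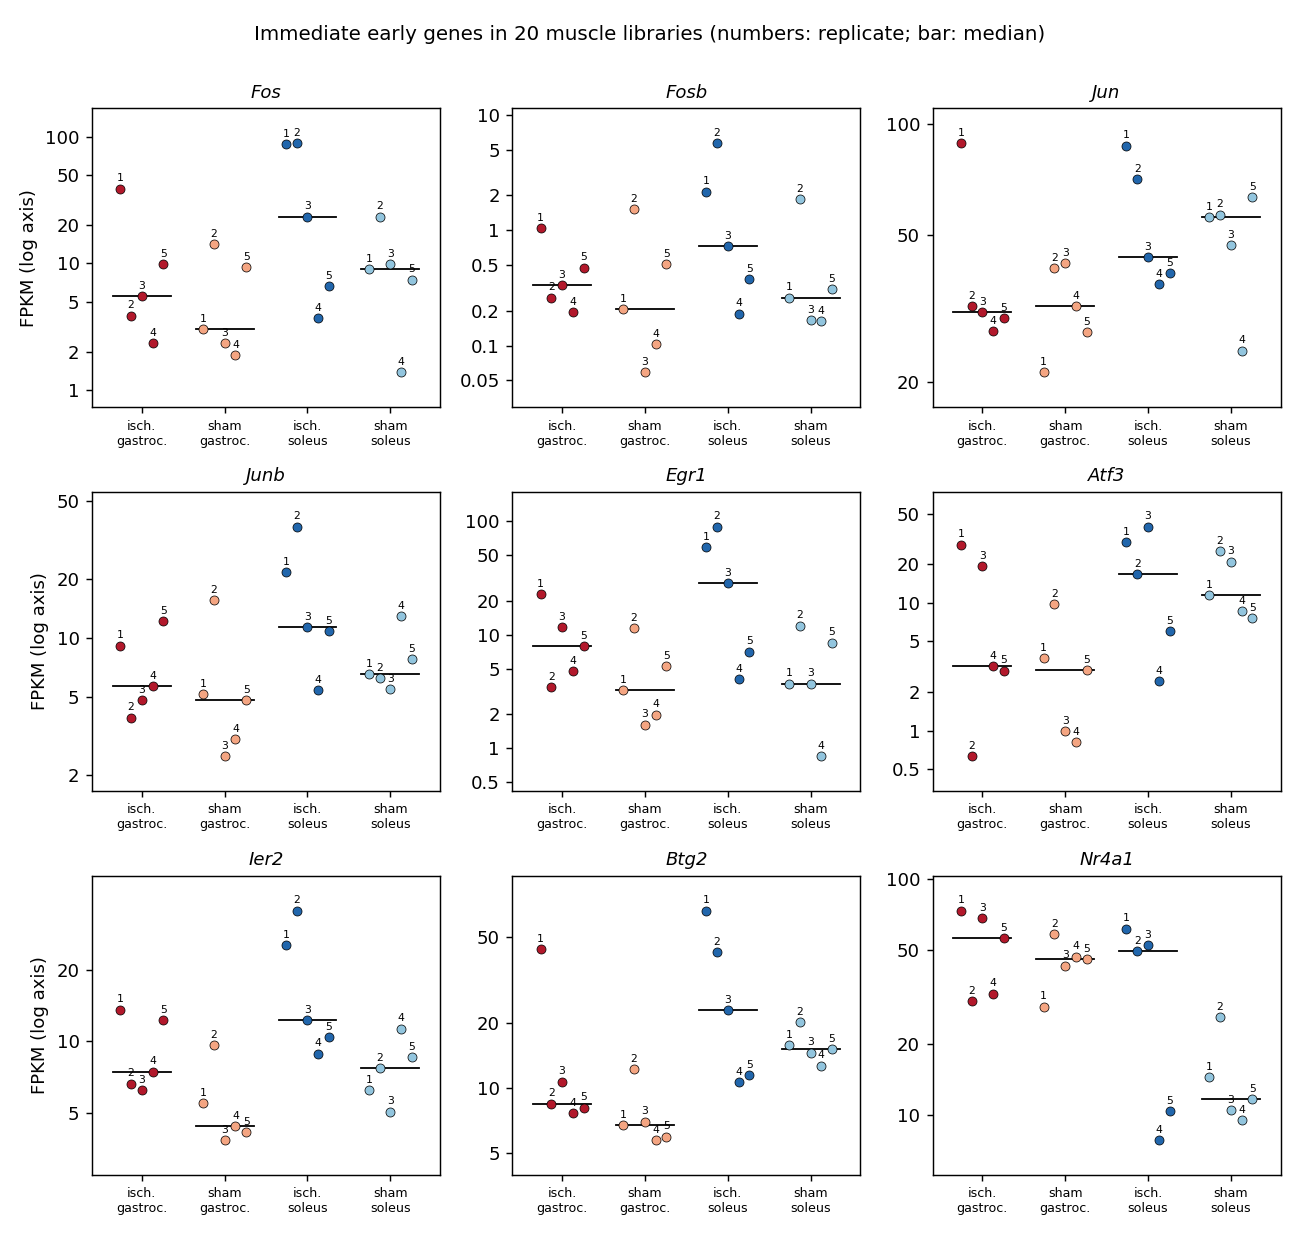
FPKM of the 9 genes (log axis) in ischemic gastrocnemius, sham gastrocnemius, ischemic soleus and sham soleus. Each point is 1 of 5 libraries with its replicate number, and the bar is the group median. Egr1 spans 4.07 to 89.8 FPKM within ischemic soleus, while the Nr4a1 points of sham gastrocnemius all lie above those of sham soleus.

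The counts of genes called (adjusted p below 0.05 over the 11693 genes tested) set the background for each comparison. For ischemia against sham in gastrocnemius, 0 of the 9 genes were called, beside 0% of all genes tested, and 0 of the 9 had an unadjusted p below 0.05, beside 6.22% of all genes. For ischemia against sham in soleus, 0 of the 9 were called, beside 1.03%, and 2 of the 9 (Egr1 and Nr4a1) had an unadjusted p below 0.05, beside 27.8%. For gastrocnemius against soleus in ischemia, 0 of the 9 were called, beside 12.6%, and Egr1 alone had an unadjusted p below 0.05, beside 27.0%. For gastrocnemius against soleus in sham, 1 of the 9 was called, beside 24.9%, and 2 of the 9 (Nr4a1 and Atf3) had an unadjusted p below 0.05, beside 37.6%. Groups that did not overlap in scaled counts were found in that comparison for 2 of the 9 (Nr4a1 and Btg2), beside 16.8% of all genes. They were found for 0 of the 9 for ischemia in gastrocnemius (beside 1.41%), for ischemia in soleus (beside 13.5%) and between muscles in ischemia (beside 21%). For the interaction, which is the ischemia response of gastrocnemius minus that of soleus, 0 of the 9 were called, beside 0%, and 0 of the 9 had an unadjusted p below 0.05, beside 6.48%. With DESeq2 the counts in this order were 0, 1, 0, 2 and 0 of the 9, and with limma on voom weights 0, 1, 1, 4 and 0. Those counts do not stand beside the edgeR shares. Of all 11693 genes voom called 578, 3068, 5118, 5278 and 1. DESeq2 called 11 for ischemia in gastrocnemius, 1444 in soleus and 2 for the interaction. Between muscles its all-gene counts lay within the ranges over all alternatives, 849 to 5118 in ischemia and 1387 to 5278 in sham. The comparisons share libraries, since each group enters more than one of them.

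Fos, the inducible partner of the Jun proteins in AP-1 (ENSRNOG00000008015, chromosome 6, 109300433 to 109303299, plus strand, in the table's coordinates), had 38.9, 3.87, 5.50, 2.34 and 9.93 FPKM in ischemic gastrocnemius 1 to 5. It had 3.02, 14.2, 2.35, 1.88 and 9.29 FPKM in sham gastrocnemius 1 to 5. Ischemic gastrocnemius 1 stood far above the other 4, which lay within the sham range. Ischemia against sham gave a log2 fold change of 0.85 ± 0.86 (edgeR adjusted p = 0.950), which was -0.21 without ischemic gastrocnemius 1. In soleus Fos had 87.5, 89.3, 23.4, 3.69 and 6.62 FPKM after ischemia, against 8.99, 23.4, 9.82, 1.38 and 7.46 FPKM after sham. Ischemic soleus 1 and 2 were above every sham library, and 4 and 5 were below the sham median. Ischemia against sham in soleus gave a log2 fold change of 1.84 ± 0.88 (edgeR adjusted p = 0.180). The order of the medians was ischemic soleus, sham soleus, ischemic gastrocnemius and sham gastrocnemius, and neighbours in that order overlapped. Junb, Atf3, Ier2 and Btg2 had the same order, with neighbours overlapping.

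Fosb, a close relative of Fos (ENSRNOG00000046667, chromosome 1, 80214494 to 80221710, minus strand), was the scarcest of the 9. It reached 1 FPKM in 5 libraries, which is the number that the filter on low values needs, and its counts ran from 14 to 1640. Ischemic gastrocnemius libraries had between 0.195 and 1.05 FPKM, with a median of 0.334, and sham gastrocnemius libraries between 0.0584 and 1.53 FPKM, with a median of 0.208. In soleus the libraries had 2.16, 5.73, 0.723, 0.189 and 0.379 FPKM after ischemia, against 0.260, 1.86, 0.166, 0.162 and 0.310 FPKM after sham. Ischemic soleus 2 was the highest of all 20 libraries, and the groups overlapped. Ischemia against sham had a log2 fold change of -0.14 ± 0.91 in gastrocnemius and 1.46 ± 0.92 in soleus (edgeR adjusted p = 0.993 and 0.313). For Fosb the order of the medians was ischemic soleus, ischemic gastrocnemius, sham soleus and sham gastrocnemius, all overlapping.

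Jun, the AP-1 subunit that JNK phosphorylates (ENSRNOG00000026293, chromosome 5, 114011189 to 114014277, minus strand), was the steadiest of the 9 and among the most abundant. It had 88.7, 32.0, 30.9, 27.4 and 29.8 FPKM in ischemic gastrocnemius 1 to 5, against 21.2, 40.6, 42.0, 32.1 and 27.3 FPKM in sham gastrocnemius. Apart from ischemic gastrocnemius 1, all values of this muscle lay between 21.2 and 42.0 FPKM. In soleus it had 87.2, 70.8, 43.5, 36.7 and 39.4 FPKM after ischemia and 55.8, 56.7, 46.8, 24.3 and 63.1 FPKM after sham. Set against sham, ischemia had a log2 fold change of 0.24 ± 0.30 in gastrocnemius and -0.16 ± 0.30 in soleus (edgeR adjusted p = 0.970 and 0.775), and the value for soleus was 0.19 with library totals in place of TMM factors. The 95% interval was -0.40 to 0.87 in gastrocnemius and -0.80 to 0.48 in soleus. The order of the Jun medians was sham soleus, ischemic soleus, sham gastrocnemius and ischemic gastrocnemius, and neighbours overlapped.

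Junb, an AP-1 subunit with weaker activity than Jun (ENSRNOG00000042838, chromosome 19, 26092974 to 26094756, minus strand), had between 3.91 and 12.1 FPKM in ischemic gastrocnemius, with a median of 5.68. Sham gastrocnemius had between 2.48 and 15.5 FPKM, with a median of 4.80. In soleus Junb had 21.6, 36.8, 11.3, 5.41 and 10.8 FPKM after ischemia, against 6.50, 6.23, 5.47, 12.9 and 7.76 FPKM after sham. In FPKM sham soleus 4 was the highest sham library, and only ischemic soleus 1 and 2 were above it. In scaled counts only ischemic soleus 2 (56.2) was above sham soleus 4 (48.5), and ischemic soleus 1 (34.2) was below it. The log2 fold change of ischemia against sham was 0.13 ± 0.57 in gastrocnemius and 0.51 ± 0.57 in soleus (edgeR adjusted p = 0.989 and 0.599). Without sham soleus 4 the value in soleus was 1.23 (edgeR adjusted p = 0.149, against 0.0773 to 0.978 over all alternatives).

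Atf3, a factor of the stress response that pairs with Jun proteins (ENSRNOG00000003745, chromosome 13, 109817728 to 109849632, minus strand), had 28.5, 0.627, 19.5, 3.18 and 2.94 FPKM in ischemic gastrocnemius 1 to 5. It had 3.68, 9.70, 0.994, 0.809 and 2.97 FPKM in sham gastrocnemius 1 to 5. Ischemic gastrocnemius 1 and 3 were above all sham libraries and 2 was below all of them. The soleus values were 29.9, 16.8, 39.4, 2.45 and 6.00 FPKM after ischemia and 11.5, 25.5, 21.0, 8.66 and 7.61 FPKM after sham. Ischemic soleus thus held the highest and the lowest Atf3 value of its muscle. For ischemia against sham the log2 fold change was 1.47 ± 0.86 in gastrocnemius and 0.00 ± 0.84 in soleus (edgeR adjusted p = 0.832 and 0.997). Between sham muscles it was -1.99 ± 0.87, gastrocnemius against soleus (edgeR adjusted p = 0.103). The Atf3 groups overlapped there, and with DESeq2 the adjusted p was 0.0392 (0.0392 to 0.204 over all alternatives).

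Egr1, a zinc finger factor that binds GC-rich promoters (ENSRNOG00000019422, chromosome 18, 27657628 to 27661429, plus strand), had 59.6, 89.8, 28.3, 4.07 and 7.06 FPKM in ischemic soleus 1 to 5. In sham soleus 1 to 5 it had 3.69, 12.0, 3.69, 0.839 and 8.50 FPKM. Ischemic soleus 1, 2 and 3 were above every sham library, and 4 and 5 were inside the sham range. Between these groups the log2 fold change was 2.50 ± 0.78, with a 95% interval of 0.87 to 4.13, an unadjusted p of 0.00458 and an edgeR adjusted p of 0.0685. By unadjusted p Egr1 ranked 782 of 11693 genes, so it was not called. With DESeq2 it was called, with 2.48 and an adjusted p of 0.00964, and over all 32 alternatives the adjusted p ran from 0.00964 to 0.157. Without sham soleus 4, the lowest sham library, the value was 2.27.

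In gastrocnemius Egr1 had 22.8, 3.45, 11.7, 4.77 and 7.86 FPKM after ischemia, against 3.21, 11.5, 1.60, 1.96 and 5.26 FPKM after sham. Ischemic gastrocnemius 1 was well above the sham libraries, 3 was level with sham gastrocnemius 2, and the others were lower. Here the log2 fold change was 1.00 ± 0.75 (edgeR adjusted p = 0.897). The ischemia response in gastrocnemius minus that in soleus was -1.50 ± 1.05, with a 95% interval of -3.70 to 0.69 (edgeR adjusted p = 0.739). The order of the Egr1 medians was ischemic soleus, ischemic gastrocnemius, sham soleus and sham gastrocnemius, and neighbours overlapped.

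Nr4a1, an orphan nuclear receptor (ENSRNOG00000007607, chromosome 7, 142905758 to 142920216, plus strand), is known in rodent muscle for a role in glucose metabolism and for higher levels in fast muscle. It had 28.8, 58.3, 43.0, 46.9 and 45.9 FPKM in sham gastrocnemius 1 to 5, against 14.5, 26.0, 10.5, 9.53 and 11.7 FPKM in sham soleus 1 to 5. Every gastrocnemius library was above every soleus library. The log2 fold change was 1.67 ± 0.47, with a 95% interval of 0.70 to 2.65 (edgeR adjusted p = 0.0134). It was called under all 33 alternatives run, with log2 fold changes from 1.54 to 1.93 and adjusted p from 0.00162 to 0.0330. Without sham soleus 4 the value was 1.76 (edgeR adjusted p = 0.0125). By unadjusted p it ranked 1734 of 11693 genes, in a comparison in which 24.9% of all genes were called.

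After ischemia Nr4a1 had 73.4, 30.5, 68.0, 32.7 and 56.3 FPKM in gastrocnemius 1 to 5, and 61.6, 49.4, 52.4, 7.83 and 10.4 FPKM in soleus 1 to 5. Ischemic soleus 1, 2 and 3 lay within the gastrocnemius range, and 4 and 5 within the sham soleus range or below it. The log2 fold change of gastrocnemius against soleus in ischemia was 0.83 ± 0.46 (edgeR adjusted p = 0.254). Against sham it was 0.12 ± 0.45 in ischemic gastrocnemius and 0.96 ± 0.46 in ischemic soleus (edgeR adjusted p = 0.988 and 0.179). The muscle difference of Nr4a1 was not shown to differ between ischemia and sham: the difference was -0.84 ± 0.64, with a 95% interval of -2.19 to 0.51 (edgeR adjusted p = 0.763). The order of the Nr4a1 medians was ischemic gastrocnemius, ischemic soleus, sham gastrocnemius and sham soleus, and of these neighbours only the last pair did not overlap.

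Ier2, a nuclear protein of the immediate early response (ENSRNOG00000054344, chromosome 19, 25774143 to 25775659, minus strand), had between 6.22 and 13.6 FPKM in ischemic gastrocnemius, with a median of 7.44. Sham gastrocnemius had between 3.82 and 9.66 FPKM, with a median of 4.40. In soleus Ier2 had 25.5, 35.5, 12.3, 8.87 and 10.4 FPKM after ischemia, against 6.21, 7.68, 5.05, 11.3 and 8.59 FPKM after sham. In FPKM all 5 ischemic soleus libraries were above the sham libraries other than 4. In scaled counts ischemic soleus 4 (10.9) was below sham soleus 2 (11) and sham soleus 5 (12.4). The log2 fold change of ischemia against sham was 0.66 ± 0.44 in gastrocnemius and 0.66 ± 0.44 in soleus (edgeR adjusted p = 0.863 and 0.345). Without sham soleus 4 the Ier2 value in soleus was 1.26 (edgeR adjusted p = 0.0598, within 0.0196 to 0.714 over all alternatives).

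Btg2, a transducer of growth arrest that p53 also switches on (ENSRNOG00000003300, chromosome 13, 50913180 to 50916982, minus strand), had 44.2, 8.45, 10.7, 7.63 and 8.11 FPKM in ischemic gastrocnemius 1 to 5. It had 6.73, 12.2, 6.97, 5.71 and 5.94 FPKM in sham gastrocnemius. Ischemic gastrocnemius 1 was far above all others of its muscle. The log2 fold change was 0.94 ± 0.51 (edgeR adjusted p = 0.828), and 0.18 without that library. In soleus Btg2 had 66.6, 42.9, 22.9, 10.6 and 11.5 FPKM after ischemia, against 15.8, 20.3, 14.6, 12.7 and 15.1 FPKM after sham. On scaled counts the log2 fold change in soleus was 0.57 ± 0.51 (edgeR adjusted p = 0.493). In FPKM ischemic soleus 1, 2 and 3 were above all sham soleus libraries, and 4 and 5 were below all of them. In scaled counts ischemic soleus 3 (50.6) was below sham soleus 4 (68.6), and the other ischemic libraries kept their places. Between sham muscles, the 5 gastrocnemius values were all below the 5 soleus values. The log2 fold change was -1.07 ± 0.51, with a 95% interval of -2.13 to 0.00 (edgeR adjusted p = 0.134).

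**Figure D2:**
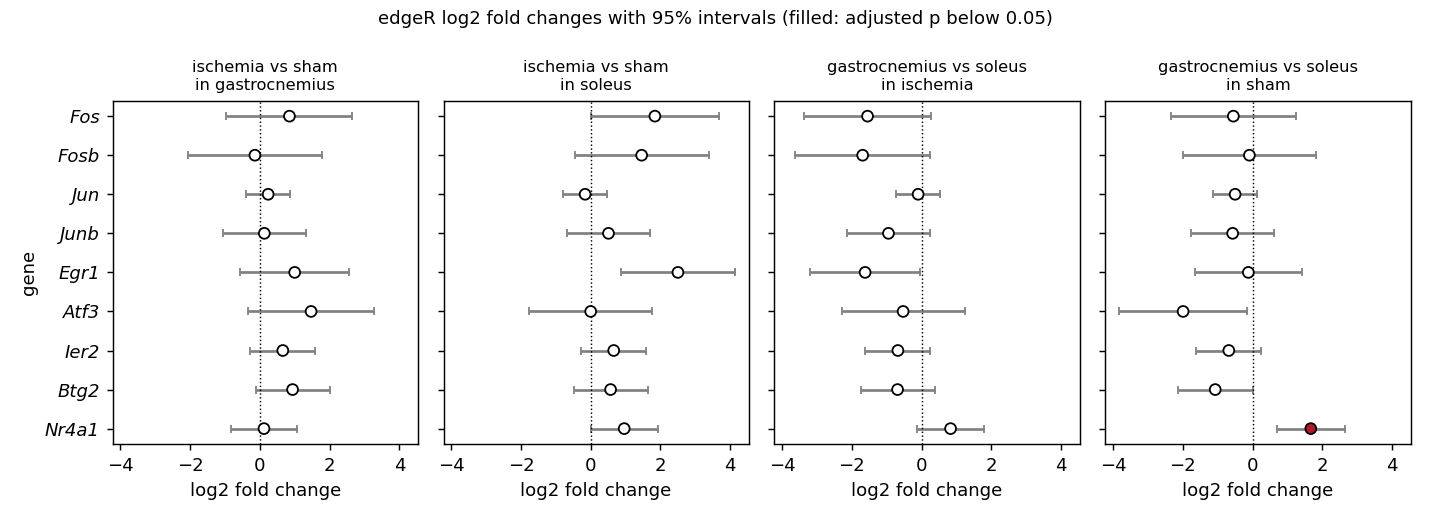
Log2 fold changes of the 9 genes from edgeR in 4 comparisons, the first named group over the second, with 95% intervals. The filled point (adjusted p below 0.05) is Nr4a1 in gastrocnemius against soleus after sham, at 1.67, and the Egr1 interval for ischemia against sham in soleus runs from 0.87 to 4.13.

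Read by sign alone, 8 of the 9 genes had a positive log2 fold change of ischemia against sham in gastrocnemius, with a median of 0.66 against 0.00 over all genes tested, of which 49.4% were positive. In soleus 8 of the 9 were positive as well, with a median of 0.66 against -0.04, and 46.9% of all genes were positive. Atf3, counted among the 8, was at 0.00 ± 0.84, with -0.59 to 0.36 over all alternatives. The same 8 genes were positive in soleus without sham soleus 4, and the median was then 1.23, against -0.01 over all genes. For gastrocnemius against soleus 1 of the 9 was positive in ischemia, with a median of -0.69 against -0.03 over all genes, and 47.6% of all genes were positive. In sham 1 of the 9 was positive too, with a median of -0.55 against -0.10, and 42.6% of all genes were positive. When sham soleus 4 was left out, 2 of the 9 were positive in sham (Junb and Nr4a1), and the median was -0.34, against -0.02 over all genes. For the interaction 3 of the 9 were positive, beside 54.5% of all genes. With all libraries the positive gene was Nr4a1 in both muscle comparisons. The lowest values between muscles in ischemia were -1.69 ± 0.93 for Fosb, -1.62 ± 0.75 for Egr1, -1.55 ± 0.87 for Fos and -0.95 ± 0.57 for Junb, and none passed (edgeR adjusted p = 0.251, 0.173, 0.266 and 0.303). Interaction values ran from -1.61 ± 1.29 for Fosb to 1.46 ± 1.20 for Atf3 (edgeR adjusted p = 0.772 and 0.777). These medians describe 9 genes that vary together, as the next values show, and carry no test.

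Within groups, over all 20 libraries, all 9 genes had a pooled spread above that of the median gene, Jun only just (percentile 56.5). The spread differed between groups. The pooled SD of log2 CPM (counts scaled to library size) within groups was 1.58 for Atf3, 1.52 for Fos, 1.52 for Fosb and 1.34 for Egr1, against a median of 0.44 over all genes tested. These 4 stood at percentile 97.4 or above among all genes tested. Junb (0.92), Nr4a1 (0.84), Btg2 (0.82) and Ier2 (0.71) were above the median, and Jun (0.48) was just above it. Without sham soleus 4 the median over all genes was 0.27 and Jun had 0.50. The 9 genes then stood between percentile 81.8 (Jun) and 99.2 (Atf3). In ischemic soleus the SDs were 2.13 for Fos, 1.96 for Fosb and 1.96 for Egr1, where the median over all genes was 0.21, and all 9 stood at percentile 93 or above. In ischemic gastrocnemius they stood between percentile 75.9 and 99.4, and in sham gastrocnemius between 56.7 and 98.4. In sham soleus, where the median over all genes was 0.59, Jun stood at percentile 7.49, Btg2 at 30.1 and Nr4a1 at 46.3, and the other 6 between 59.3 and 88.9. Over the other 4 sham soleus libraries (without replicate 4) the median over all genes was 0.17, and the 9 stood between percentile 55.5 (Jun) and 99.6 (Fosb). Fos ranged 24.2-fold within ischemic soleus and 17.0-fold within sham soleus, which was 3.14-fold, from 7.46 to 23.4 FPKM, without sham soleus 4.

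The libraries high for one gene tended to be high for the others. In ischemic gastrocnemius 1, sham gastrocnemius 2, ischemic soleus 1 and ischemic soleus 2, all 9 genes were above their group mean, with median deviations of 1.29, 1.57, 1.27 and 1.15 on the log2 scale. In ischemic gastrocnemius 2 and 4 and in ischemic soleus 4 and 5 all 9 were below it, with medians of -0.57, -0.57, -1.79 and -1.09. Ischemic soleus 4 had the lowest FPKM of its group for all 9 genes. Ischemic gastrocnemius 1 was highest of its group for 8 genes, with Junb the exception, and sham gastrocnemius 2 for 8, with Jun the exception. Sham soleus 4 went in both directions: on the log2 scale of scaled counts, 5 genes were above the group mean and 4 below. In FPKM it was the highest of its group for Junb and Ier2 and the lowest for Fos, Fosb, Jun, Egr1, Btg2 and Nr4a1. Of these 6, Btg2 and Nr4a1 were above the group mean in scaled counts, with deviations of 0.61 and 0.4.

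**Figure D3:**
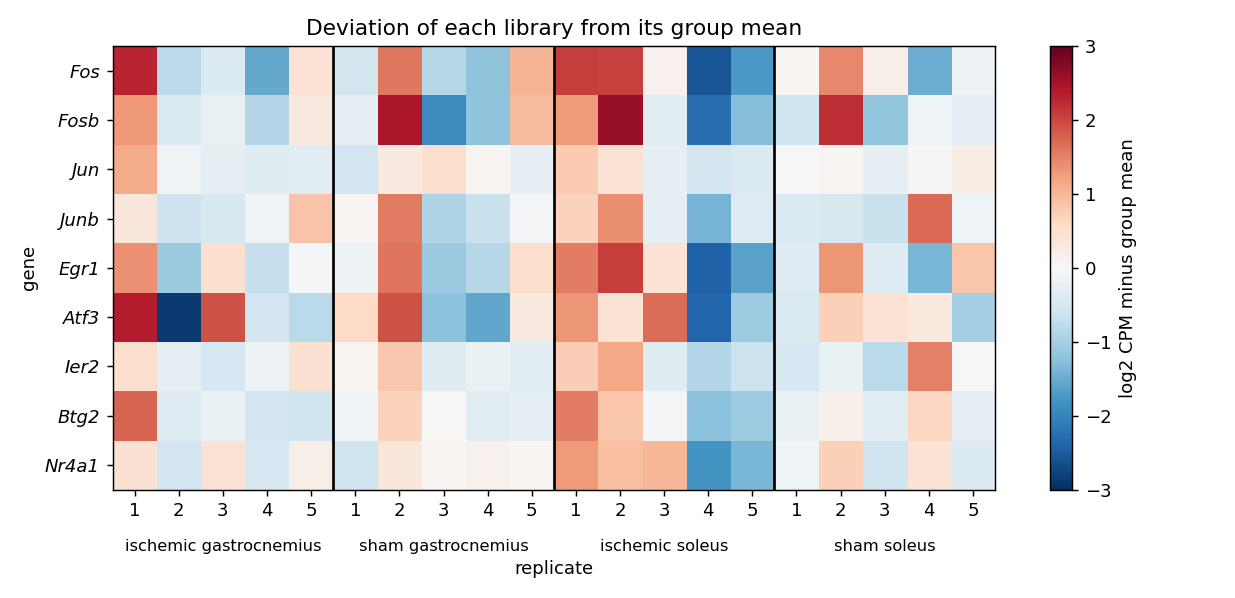
Deviation of each library from its group mean in log2 CPM, for 9 genes (down) and 20 libraries in 4 groups of 5 (across). Ischemic gastrocnemius 1, sham gastrocnemius 2 and ischemic soleus 1 and 2 are red for all 9 genes, and ischemic soleus 4 and 5 are blue for all 9.

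Correlations were taken over the 20 libraries after the group means were removed. Of the 36 pairs of genes all 36 had a positive Pearson r, between 0.35 and 0.94 with a median of 0.66. The highest was that of Junb with Ier2. Leaving out sham soleus 4, the range was 0.38 to 0.92 with a median of 0.73, and the highest was that of Fos with Egr1. Against Fos, Egr1 had r = 0.93 and Spearman's rho = 0.90 (two-sided permutation within groups, raw p = 1e-05 for r and 4e-05 for rho, adjusted over 8 relations 8e-05 and 0.00032, where 1e-05 is the smallest that 100000 permutations can give). Leaving out ischemic gastrocnemius 1 and ischemic soleus 4, the libraries farthest from the median of Fos, r was 0.91. Fosb had r = 0.87 and rho = 0.82 with Fos (permutation adjusted p = 0.00012 and 0.0018), and 0.85 without the same libraries. For Btg2, Nr4a1, Atf3 and Jun r was 0.76, 0.73, 0.67 and 0.67, rho was 0.65, 0.67, 0.68 and 0.59, and without those libraries r was 0.65, 0.66, 0.53 and 0.53. The permutation adjusted p of these 4 genes lay between 0.00877 and 0.0134 for r and between 0.016 and 0.0339 for rho. Junb (r = 0.50, rho = 0.48, permutation adjusted p = 0.0563 and 0.0597) and Ier2 (r = 0.46, rho = 0.46, permutation adjusted p = 0.0825 and 0.0799) did not pass. Sham soleus 4 was below its group mean for Fos and above it for Junb and Ier2. With it left out both passed, Junb with r = 0.77 and rho = 0.76 (permutation adjusted p = 0.00235 and 0.00372) and Ier2 with r = 0.80 and rho = 0.70 (permutation adjusted p = 0.00243 and 0.00979), and the other 6 genes had r between 0.69 and 0.92. The labels name no sequencing batch within which to repeat this, and all genes of a library share its RNA and its scaling.

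Gastrocnemius and soleus libraries of the same number and treatment were set against each other, as deviations from the group means over 10 pairs. The highest r of the 9 genes was that of Btg2, at 0.69 with rho = 0.47 (permutation raw p = 0.0435 and 0.243, adjusted over 9 relations 0.295 and 0.446), and 0.38 without the pairs ischemic 1 and sham 2. Egr1 deviated in the same direction in 9 of 10 pairs, where the other 8 genes did so in 4 to 7, with r = 0.45, rho = 0.30 and a permutation adjusted p of 0.364 for r. Junb had r = -0.29. None of the 9 passed, and the labels do not say that such pairs share a rat.

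Fibre and cell type markers were high in some of these libraries and not in others. Slow fibre markers summed to 8230 FPKM in ischemic gastrocnemius 1 and 9900 FPKM in sham gastrocnemius 2, the libraries with the highest levels of 8 of the 9 genes in each group. The other ischemic gastrocnemius libraries had 168, 6340, 3870 and 8460 FPKM, so replicate 5 had as much as replicate 1. The other sham gastrocnemius libraries had 2340, 224, 404 and 2630 FPKM. Over all 20 libraries with group means taken out, the 9 slow fibre markers had r between 0.42 and 0.48 with the mean of the 9 genes, and the 8 fast fibre markers in the table had a median r of -0.41, with Pvalb, a calcium buffer of fast fibres, at -0.73. Ischemic gastrocnemius 1 also had the highest fibroblast (2050 FPKM), macrophage (219 FPKM) and Schwann cell sums (81.6 FPKM) of its group. In sham gastrocnemius the highest of these sums were in replicate 1 (1770, 160 and 50.6 FPKM), where 3 of the 9 genes were above the group mean. Sham gastrocnemius 2, with all 9 genes above it, had 541, 57 and 13.3 FPKM. The part of the fibre and cell makeup in these differences was not tested.

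In soleus the marker sums of fibroblasts and endothelium, in FPKM without TMM scaling, did not overlap between the groups. In scaled counts 13.5% of all genes did not overlap between these groups. The fibroblast sum was 2400 to 3960 FPKM in ischemic soleus, against 647 to 1240 FPKM in sham soleus. The macrophage sum was 208 to 322 FPKM, against 59.8 to 210 FPKM, and the endothelial sum 82.9 to 120 FPKM, against 37.0 to 74.3 FPKM. Of single markers tested for ischemia in soleus, 1 of 8 fibroblast, 0 of 9 macrophage and 0 of 10 endothelial markers were called. That stands beside 1.03% of all genes. By sign, 8 fibroblast, 7 macrophage and 7 endothelial markers were higher, and 0, 2 and 3 were lower. Ischemic soleus 4, lowest in all 9 genes, had the highest fibroblast (3960 FPKM), macrophage (322 FPKM) and endothelial sums (120 FPKM) of its group. Ischemic soleus 1, with all 9 genes above the group mean, was second in the fibroblast (3310 FPKM) and endothelial sums (98 FPKM). Of the neutrophil markers 0 of 6 passed the filter on low values, and they summed to at most 2.22 FPKM in any library, with at least 4 of the 6 at 0 in some library of each group. With the mean of the 9 genes, the endothelial, mural, fibroblast and macrophage markers had median r of 0.14, 0.21, 0.15 and 0.19, against -0.01 over all other genes. Of these 36 markers 0 had r of 0.5 or more, where 222 of 11684 other genes did, a share so low that nothing is read from the 0. The part of these cell types in the differences was not tested.

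Other rapidly induced genes were read from a list of 36, of which 30 were tested. In soleus, where 1.03% of all genes were called, 1 was called higher after ischemia and 1 lower. Klf6, a zinc finger factor, rose to 3.78 ± 0.435 FPKM in ischemic soleus, against 1.44 ± 0.555 FPKM in sham soleus (SD, n = 5 each). On scaled counts its log2 fold change was 1.09 ± 0.23 (edgeR adjusted p = 0.0383). Klf15, a factor of the glucocorticoid and fasting response, fell to 6.49 ± 1.45 FPKM in ischemic soleus, against 10.9 ± 0.642 FPKM in sham soleus (SD, n = 5 each). On scaled counts its log2 fold change was -1.22 ± 0.25 (edgeR adjusted p = 0.0383). Scaled counts and FPKM are unlike measures, so these fold changes differ from the ratios of the mean FPKM. Without sham soleus 4 the fold changes were 1.00 for Klf6 and -0.93 for Klf15. Both calls were lost without any 1 of the 5 ischemic soleus libraries, without sham soleus 1 or 2, without ischemic gastrocnemius 3 or 5 and without sham gastrocnemius 5, and that of Klf6 also without ischemic gastrocnemius 4. With 1 library left out the log2 fold change was 1.00 to 1.16 for Klf6 and -1.31 to -0.93 for Klf15, with edgeR adjusted p of up to 0.128 for each. The median of the 30 was 0.29, against -0.04 over all genes. In gastrocnemius 0 of the 30 were called, beside 0% of all genes, and Plk2, a polo-like kinase, had the smallest p (0.86 ± 0.28, edgeR adjusted p = 0.728).

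Between muscles in sham, where 24.9% of all genes were called, 3 of the 30 were called higher in gastrocnemius and 5 lower. Sgk1, a kinase of the salt and glucocorticoid response, had 2.03 ± 0.45, and Phlda1, a pleckstrin homology-like protein, -2.27 ± 0.53 (edgeR adjusted p = 0.00304 and 0.00432). In ischemia, where 12.6% of all genes were called, 2 of the 30 were called higher in gastrocnemius and 0 lower. The 2 were the antiproliferative gene Tob1 (0.75 ± 0.20) and Klf15 (0.77 ± 0.24), with edgeR adjusted p of 0.0189 and 0.0443. The Tob1 call was lost without ischemic gastrocnemius 2 or 5 (highest edgeR adjusted p 0.0580), and the Klf15 call with any of 12 of the 20 libraries left out (highest edgeR adjusted p 0.117). For the difference between the ischemia responses, 0 of the 30 were called, beside 0% of all genes. Gadd45b, a stress sensor, had 1.94 ± 0.80 (edgeR adjusted p = 0.721).

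Among the other leucine zipper factors 15 of 19 listed genes were tested. For ischemia 0 were called in either muscle, beside 1.03% of all genes in soleus and 0% in gastrocnemius. Between sham muscles, where 24.9% of all genes were called, 0 of the 15 were called higher and 4 lower in gastrocnemius. They included Atf5 (-1.48 ± 0.31) and Ddit3, which encodes CHOP of the unfolded protein response (-1.68 ± 0.45), with edgeR adjusted p of 0.00174 and 0.00957. Leaving out sham soleus 4 gave -1.0 and -1.02 (edgeR adjusted p = 0.00104 and 0.0289). In ischemia, where 12.6% of all genes were called, 1 of 15 was called, again Atf5. It had -1.17 ± 0.31 (edgeR adjusted p = 0.0158, and 0.0531 without ischemic gastrocnemius 2). The smallest p for ischemia was that of Mafg, a small Maf protein, in soleus (-0.46 ± 0.18, edgeR adjusted p = 0.106) and that of Atf4, a factor of the integrated stress response, in gastrocnemius (-0.35 ± 0.15, edgeR adjusted p = 0.799). For the difference between the ischemia responses it was that of Jund, an AP-1 subunit present without induction (1.59 ± 0.92, edgeR adjusted p = 0.721).

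Of the other EGR and NR4A genes and their corepressors, the table held 7, of which Nr4a3, Nab1 and Nab2 passed the filter on low values. Nab1 and Nab2 encode proteins that bind EGR factors and repress them. In soleus Nab1 had 3.95 ± 0.469 FPKM after ischemia, against 1.66 ± 0.781 FPKM after sham. The lowest sham soleus library had 0.269 FPKM, against a median of 1.98. The log2 fold change of Nab1 on scaled counts was 1.01 ± 0.25 (edgeR adjusted p = 0.0521). Nab2, named in soleus after its values had been seen, had 4.10 ± 1.06 FPKM after ischemia, against 1.28 ± 0.387 FPKM after sham (SD, n = 5 each). Its log2 fold change on scaled counts was 1.12 ± 0.38 (edgeR adjusted p = 0.0816). Neither passed. In gastrocnemius Nr4a3, a relative of Nr4a1, had the smallest p for ischemia (1.83 ± 1.19, edgeR adjusted p = 0.853). Between sham muscles, where 24.9% of all genes were called, Nab1 alone of the 3 was called. It was higher in gastrocnemius, with 0.75 ± 0.25 (edgeR adjusted p = 0.0351), a call lost without sham gastrocnemius 1, 3 or 5 (up to 0.106). Without sham soleus 4 the value was 0.53 (edgeR adjusted p = 0.00923).

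Upstream kinases and factors had 19 of 24 listed genes tested. For ischemia 0 were called in either muscle, beside 1.03% of all genes in soleus and 0% in gastrocnemius. Crem, a cyclic AMP response modulator, had -0.54 ± 0.16 in soleus, and Elk3, a ternary complex factor, 0.75 ± 0.24 in gastrocnemius (edgeR adjusted p = 0.0649 and 0.728). Between sham muscles, where 24.9% of all genes were called, 4 of the 19 were called higher and 2 lower in gastrocnemius. The higher ones included Mrtfa, an actin-sensing partner of the serum response factor (1.79 ± 0.28), and Mapk9, which encodes JNK2 (0.89 ± 0.24). Their edgeR adjusted p was 0.000151 and 0.0116. In ischemia, where 12.6% of all genes were called, 3 of the 19 were called higher and 1 lower. Mrtfa had 1.37 ± 0.27 and the kinase gene Rps6ka5 -1.19 ± 0.36 (edgeR adjusted p = 0.00253 and 0.0361). The Rps6ka5 call was lost with any of 7 of the 20 libraries left out (edgeR adjusted p up to 0.106), and the Mrtfa calls with none. Of 15 tested feedback inhibitors, 0 were called for ischemia in either muscle. Spry2, which dampens receptor tyrosine kinase signals, had 0.58 ± 0.17 in soleus (edgeR adjusted p = 0.0637). Between sham muscles 1 of the 15 was called, beside 24.9% of all genes. This was Zfp36l1, which encodes a protein that speeds the decay of AU-rich mRNAs, at -1.44 ± 0.32 (edgeR adjusted p = 0.00313).

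The genes most like the 9 were ranked by Pearson r, over the 20 libraries with group means taken out, with the mean of the 9 genes. Among the first 10 were Ccn1 (0.868), Dusp1 (0.857), Xirp1 (0.812), Csrnp1 (0.791), Ier5 (0.787), Id1 (0.771), Apold1 (0.759), Gem (0.757) and Myc (0.753). Ccn1 encodes a matricellular protein, Dusp1 a phosphatase that switches off MAP kinases, Xirp1 an actin-binding protein of striated muscle and Id1 an inhibitor of helix-loop-helix factors. Over the 11684 other genes tested the 1st and 99th percentiles of r were -0.57 and 0.55. With no filter on low values 6 of the 10 stayed among the first 10, and without sham soleus 4 it was 4 of the 10, with Ccn1 and Dusp1 first in both.

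By list, 16 of 30 other rapidly induced genes had r of 0.5 or more, beside 222 of 11684 over all other genes. The counts were 5 of 15 feedback inhibitors, 4 of 15 other leucine zipper factors, 0 of 3 EGR, NR4A and corepressor genes and 1 of 19 upstream kinases and factors. The medians of r were 0.54, 0.30, 0.33, 0.17 and -0.09 in this order, and -0.01 over all other genes. The upstream gene was Srf, the serum response factor, with r = 0.56. Plk2 had the lowest r of the rapidly induced genes, at -0.53. The counts without sham soleus 4 were 17 of 30, 7 of 15, 5 of 15, 1 of 3 and 1 of 19, beside 494 of 11684. These values describe libraries that share depth and RNA, with no test.

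**Figure D4:**
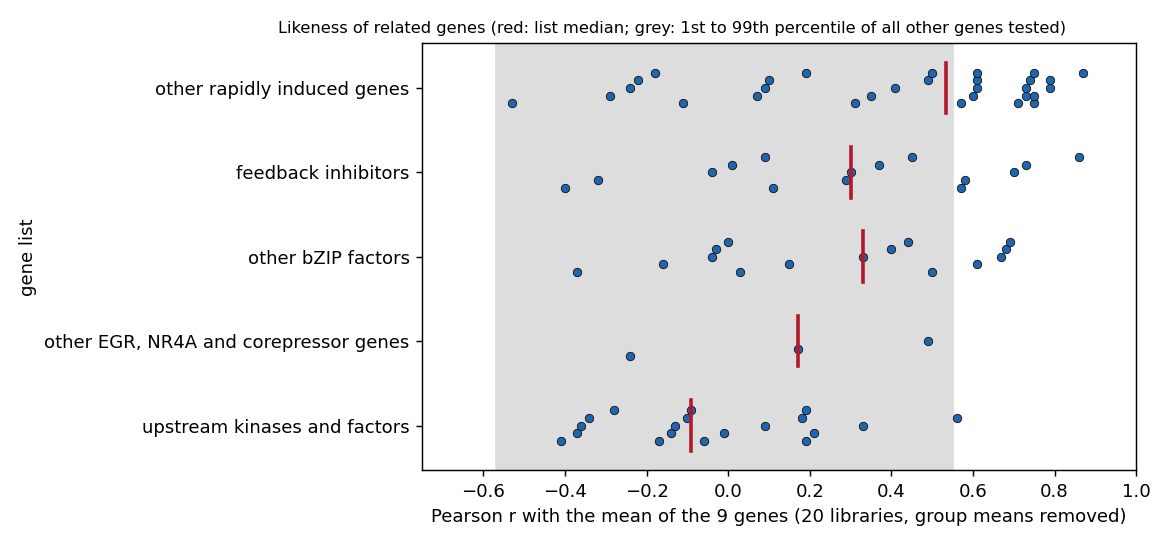
Pearson r of each tested gene of 5 related lists with the mean of the 9 genes, over 20 libraries with group means taken out. Points are genes, red bars list medians, and the grey band runs from -0.57 to 0.55, the 1st to the 99th percentile of all other genes. Rapidly induced genes have a median of 0.54 and upstream kinases and factors one of -0.09.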

How the data were processed

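Poly(A) RNA of rat gastrocnemius and soleus was sequenced in 20 stranded, paired-end libraries, per the labels' protocols. The deposited table gives estimated counts per gene (expected counts, whole numbers, not scaled) and FPKM, per the file headers. The sources used here do not name the aligner, counter, genome build or annotation. Multiples of 4 make up 28.3% to 36.5% of each library's counts of 1 to 40, so counts are not read as fragments. The 9 genes, the lists and the tests were chosen with earlier results of these data known. A gene was tested where 5 or more of 20 libraries had 1 FPKM or more (11693 genes). After TMM scaling, counts were fitted with edgeR 4.0.16 (R 4.3.3; quasi-likelihood, robust), with a term for each of 4 groups. Tests were two-sided, Benjamini-Hochberg adjusted over all genes tested, and called at adjusted p below 0.05. SE is the log2 fold change over the square root of F. The fit was tested on simulated data. DESeq2 1.42.0 and limma 3.58.1 were alternatives, as were other scalings, filters, pseudocounts, replicate blocks and leaving out each library; dividing counts by 4, the correlations, spreads and medians without sham soleus 4, and the repeats for listed genes were chosen after seeing the data. Named list genes are up to 2 called genes with the smallest p per comparison, or else the gene with the smallest p. For likeness they are the 10 genes with the highest r, of which 1 is not reported here. Promoters came from RefSeq GRCr8. No molecular identifiers are named, so precision comes from the 5 libraries of a group.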

Additional observations from a re-analysis of the deposited data

Results flagged for a closer look

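In 7 of 36 combinations of gene and group, the highest of 5 libraries lay further from the next than Dixon's 95% critical value allows. A chance rate of about 1 in 20 holds for normally distributed values. These FPKM values were not put on a log scale and ranged up to 45.6-fold within a group (Atf3 in ischemic gastrocnemius). The 7 are therefore not set against that rate. All 7 were high values, in 3 libraries. Ischemic gastrocnemius 1 had 38.9 FPKM of Fos (next 9.93), 88.7 FPKM of Jun (next 32.0) and 44.2 FPKM of Btg2 (next 10.7). Sham gastrocnemius 2 had 15.5 FPKM of Junb (next 5.14), 9.66 FPKM of Ier2 (next 5.48) and 12.2 FPKM of Btg2 (next 6.97). Sham soleus 2 had 1.86 FPKM of Fosb (next 0.310). The 9 genes vary together within a library, so these 7 are not independent. None of the 7 was in ischemic soleus.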

How the results depend on the processing

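Over 33 alternatives, the 45 log2 fold changes of the 9 genes gave 1458 recomputed values. Of these, 1417 were counted as unchanged in sign and side of the threshold, 12 became called, 0 lost a call and 29 changed sign, all uncalled. Signs were compared after rounding to 2 decimals, so a main value of 0.00 could not count as changed. That held for Atf3 for ischemia in soleus (-0.59 to 0.36 over all alternatives) and Ier2 for the difference of responses (-0.60 to 0.37). Nr4a1 in gastrocnemius against soleus in sham was called in every one. In soleus for ischemia, 1 gene was called in place of 0 with DESeq2 (Egr1), with voom weights (Ier2, 1.06) and with log2(FPKM + 1) (Ier2, 1.00). In gastrocnemius against soleus in ischemia it was 1 with voom weights (Nr4a1, 1.24) and without ischemic gastrocnemius 1 (Btg2, -1.44, adjusted p = 0.0326, within 0.0326 to 0.877). In sham 2 were called in place of 1 with only the groups compared (Btg2, -1.03), with DESeq2 (Atf3, -1.99) and without sham gastrocnemius 2 (Atf3, -2.73), and 4 with voom weights (Jun, Atf3 and Btg2 added); leaving out single libraries gave 1 to 2. The cause was not tested.

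Changed signs were: for ischemia in gastrocnemius, Fos -0.20 with voom, and Fosb 0.62 with the replicate block, 0.03 with log2(FPKM + 1) and 0.33 with log2(FPKM + 0.1); for ischemia in soleus, Jun 0.19 with library totals and 0.15 with either FPKM pseudocount; in sham, Fosb 0.26 with voom. Leaving out single libraries gave, for ischemia in gastrocnemius, Fos -0.21 to 1.38, Fosb -0.63 to 0.93, Jun -0.16 to 0.36 and Junb -0.14 to 0.76. Between muscles it gave Jun -0.49 to 0.14 in ischemia, and Fosb -1.16 to 1.02, Junb -1.21 to 0.16 and Egr1 -0.72 to 0.30 in sham. For the difference of responses it gave Junb -1.11 to 0.26, Btg2 -0.38 to 0.89 and Ier2 -0.60 to 0.37. For ischemia in soleus it gave Atf3 -0.45 to 0.28.

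Counts over all genes moved more. For ischemia in gastrocnemius, 0 became 11 with DESeq2 and 578 with voom (0 to 6 without single libraries). In soleus 121 became 227 with DESeq2 size factors, 398 with library totals, 2 with no filter, 229 without the robust option, 249 with counts divided by 4, 1444 with DESeq2, 3068 with voom, and 1668 and 881 with log2 FPKM + 1 and + 0.1 (1 to 737 without single libraries). Between muscles in ischemia 1473 became 2633 with totals, 3685 with only the groups compared, 5118 with voom, and 3548 and 2871 with FPKM (849 to 3784). In sham 2911 became 1387 with only the groups compared and 5278 with voom (2065 to 4136). For the difference of responses 0 became 2 with DESeq2 and 1 with totals, voom and either FPKM pseudocount (0 to 1). Library totals moved the median of all genes to 0.31 for ischemia in soleus, -0.38 between muscles in ischemia and -0.17 in sham, and the share of calls that were higher to 97.2% in place of 51.2%, 16.7% in place of 62.5% and 33.2% in place of 45.7%.

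The labels do not say that equal numbers pair the libraries. Deviations of equal numbers correlated across muscles at 0.00 to 0.38 in ischemia and -0.17 to 0.26 in sham, and 3 of 5 and 2 of 5 libraries correlated best with their own number, so the numbers were not taken as pairs. A replicate block gave 123 genes in place of 121 for ischemia in soleus and 0 in gastrocnemius. Set within treatment, it gave 1344 genes between muscles in ischemia and 2161 in sham, where 2 of the 9 genes were called in place of 1 (Btg2, -1.07, adjusted p = 0.0218, within 0.0218 to 0.233). Fosb counts are the thinnest of the 9, and its values are the least certain.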
